A study of Mus musculus with 23 samples.

Results

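The genes described here encode the subunits of the proteasome, the protease that degrades ubiquitin-tagged proteins in every cell. They were taken as the rows of the gene table named Psma, Psmb, Psmc or Psmd followed by a number, without Psmb8 and Psmb9, which gave 37 of the 24917 genes in the table. The count split into 17 genes of the core particle (Psma and Psmb) and 20 of the regulatory particle (Psmc and Psmd). The core is a barrel of stacked rings. Its outer rings are built of alpha subunits (Psma) and its inner rings of beta subunits (Psmb), and Psmb5, Psmb6 and Psmb7 carry the constitutive catalytic sites. The regulatory particle caps the barrel with a base, in which a ring of ATPases (Psmc) unfolds the substrate, and a lid, in which Psmd14 removes the ubiquitin chain. In intestinal epithelium the proteasome is known for protein turnover in rapidly renewing cells and, with inducible beta subunits in place of the constitutive ones, for making peptides for antigen presentation.

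The RNA came from colonic epithelium, released with EDTA from whole colons of male C57BL/6 mice (C57BL/6J in the study's methods) that were 6 weeks old when their diets began. LF mice ate a 10% fat diet for 43 weeks. HF mice ate a 60% fat diet for the same 43 weeks, and HFLF mice ate the 60% fat diet for 15 weeks and the 10% fat diet for the next 28 weeks. Total RNA depleted of ribosomal RNA was sequenced in batches labelled 1 and 2, with 4 LF, 3 HF and 4 HFLF samples in batch 1 and 4 LF, 3 HF and 5 HFLF samples in batch 2. The study's methods state fewer mice per dietary regimen than there are samples per diet here, and no source used here ties each of the 23 samples to a mouse, so samples counted in n need not be separate mice. The p-values measure only the spread between samples, which may in part be technical. The comparisons asked whether subunit levels differed under the high-fat diet, and whether they differed from HF and from LF after the return to low-fat food.

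Counted fragments per sample ran from 29189922 to 46498521 in batch 1 and from 31607019 to 65320947 in batch 2. The HF totals were 46498521, 31816330 and 46450956 in batch 1 and 45973207, 39781396 and 65320947 in batch 2. Levels are given as CPM, counts scaled to a common library size with TMM factors. The epithelial markers Epcam, Cdh1, Krt8, Krt18 and Vil1 summed to 8888 to 11951 CPM in every sample. The 8 leukocyte markers summed to 11.5 to 26.6 CPM and the 8 stromal and smooth muscle markers to 3.25 to 87.7 CPM, and none of these genes was at 0 in a whole group.

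Of the 37 genes, 35 passed the filter on low counts in every fit. Psma8, an alpha subunit of the testis, had 3 counts in all 23 samples together, and Psmb11, a beta subunit of the thymic cortex, had 0 counts. With a floor of 3 counts per library, the level of Psmb11 was at most 0.103 CPM in the shallowest library. All other numbers are for the 35 genes. Together they took 0.217% to 0.260% of the counts in LF samples of batch 1 and 0.268% to 0.305% in those of batch 2.

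Levels between genes were compared per kilobase of merged protein-coding exons. In LF samples of batch 1 the mean level ran from 6.59 CPM per kb for Psmd9 to 83.5 CPM per kb for Psmb4, a 12.7-fold span, and the same pair of genes marked the ends in batch 2 at 6.93 and 116 CPM per kb. The 14 constitutive core genes (Psma1 to Psma7 and Psmb1 to Psmb7) had a median of 58.0 CPM per kb in LF samples of batch 1. The 17 genes of the ATPase ring, the base and the lid had a median of 37.5 CPM per kb. Psmd5, Psmd9 and Psmd10, whose products help to assemble the base and are not part of the finished particle, were the lowest of all, at 10.1, 6.59 and 10.9 CPM per kb. Psmb10, the inducible relative of Psmb7, was at 67.6 CPM per kb in the same samples, against 49.9 for Psmb7. In batch 2 the medians were 72.4 CPM per kb for the core and 41.8 for the regulatory particle. A gene length taken from an annotation need not be the length of the transcript used in this tissue, and differences of less than the SD between samples carry no order.

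Promoter sequences from RefSeq (GRCm38.p6, 250 bases before to 50 after the start site) matched 30 of the 37 genes, with 32 promoters in all. They were searched on both strands for TGACNNNGC, the core of the antioxidant response element that Nfe2l1 and Nfe2l2 bind, for CCGGAAG, a core of ETS factor sites, and for CCAAT. No match of one overlapped a match of another. TGACNNNGC was found in 5 of 32 promoters (15.6%), of Psmb5, Psmb6, Psmc6, Psmd9 and Psmd12, against 12.4% of all 32851 promoters. CCGGAAG was found in 11 (34.4%), of 10 genes, against 8.86% of all promoters, and CCAAT in 12 (37.5%), against 37.4%. Windows around the match are shown for a pair of genes per motif, picked from genes found below to be higher in HF than in LF. They include the proteolytic subunits Psmb5 and Psmb6 and the deubiquitinase Psmd14. Sequences run 5′ to 3′ on the strand of the gene, with the motif in capitals.
Psmb5, TGACNNNGC, chr14:54618004-54618072, minus strand: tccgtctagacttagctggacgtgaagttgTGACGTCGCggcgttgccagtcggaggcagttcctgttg
Psmb6, TGACNNNGC, chr11:70525318-70525356, plus strand: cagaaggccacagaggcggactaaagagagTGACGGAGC
Psmc6, CCGGAAG, chr14:45329694-45329760, plus strand: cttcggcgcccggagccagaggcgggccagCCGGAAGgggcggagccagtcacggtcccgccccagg
Psmd6, CCGGAAG, chr14:14120954-14121020, minus strand: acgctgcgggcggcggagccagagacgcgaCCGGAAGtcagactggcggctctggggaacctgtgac
Psma2, CCAAT, chr13:14613158-14613222, plus strand: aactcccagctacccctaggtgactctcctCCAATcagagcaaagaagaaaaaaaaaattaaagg
Psmd14, CCAAT on the reverse strand, chr2:61711505-61711569, plus strand: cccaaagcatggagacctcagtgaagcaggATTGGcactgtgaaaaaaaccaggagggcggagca

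**Figure D1:**
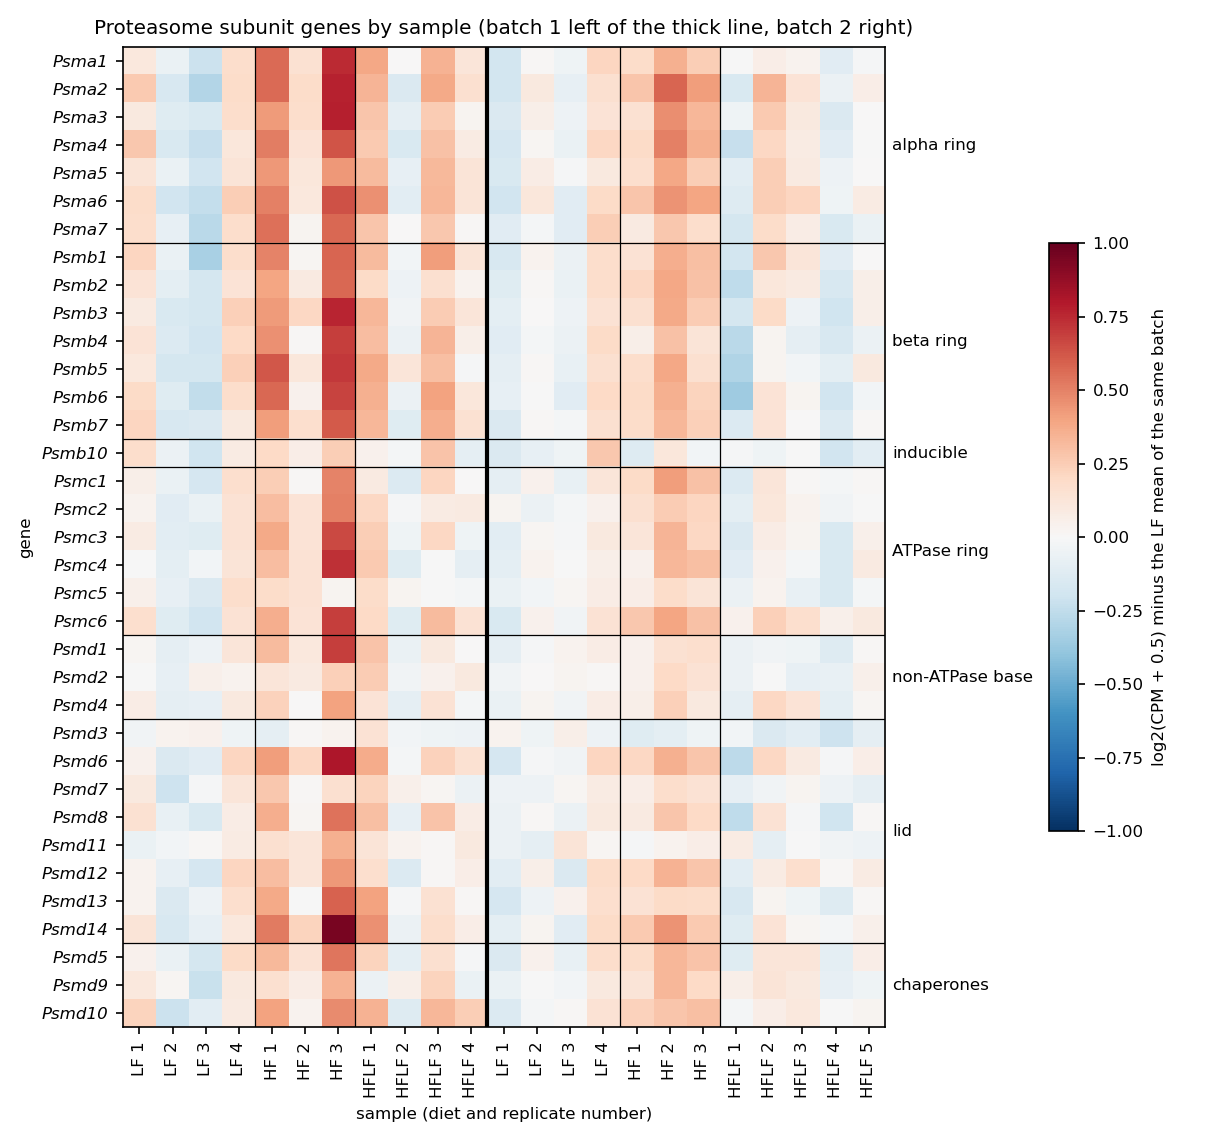
Each row is a gene and each column a sample, and the colour is log2(CPM + 0.5) minus the LF mean of the same batch. The columns HF 1 and HF 3 of batch 1 are red for nearly every gene, HF 2 of batch 1 is pale, and the row of Psmd3 stays pale throughout.

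Proteasome subunit genes were higher in HF than in LF epithelium. Over both batches 34 of 35 genes were higher in HF, where 48.7% of all 14385 genes tested were, and the median of their log2 fold changes was 0.30, against -0.01 for all genes. By edgeR's quasi-likelihood test, with batch as a covariate, 24 genes rose at an adjusted p under 0.05 and a fold above 1.2, and none fell. The background for that call was 9.0% of all genes. At the adjusted p alone 30 genes rose, against 15.0% of all genes. In bulk RNA fewer cells of a type and less RNA per cell cannot be told apart, and the same holds for more.

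The samples moved as wholes. The mean over the 35 genes of the log2 difference from the LF mean was 0.37, 0.10 and 0.55 in the HF samples of batch 1, where the LF samples lay at 0.11, -0.11, -0.14 and 0.14. HF replicate 2 of batch 1 thus lay within the LF range. In batch 2 the HF samples were at 0.13, 0.31 and 0.22 and the LF samples at -0.11, 0.01, -0.04 and 0.14. HF replicate 1 of batch 2 was just below the highest LF sample. LF samples differed from each other in the same coordinated way: in batch 1, 31 and 34 of the 35 genes were above their LF mean in replicates 1 and 4, and 2 and 3 genes in replicates 2 and 3. Mean total counts were highest in HF in each batch. In LF of batch 2 the means over the genes rose in the order of total counts, and in LF of batch 1 they did not. The HF sample with the fewest counts, replicate 2 in each batch, had the lowest mean of HF in batch 1 and the highest in batch 2. The part of depth in these values was not tested.

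All 14 constitutive core genes passed the call over both batches, the median log2 fold change being 0.36 within a range of 0.28 to 0.47. Among the alpha subunits, Psma2 (chromosome 13, 14613242 to 14625673 in mm10) had the largest change of all 35 genes. Its level was 93.5, 69.7, 63.5 and 88.4 CPM in the LF samples of batch 1, and 115, 88.2 and 133 CPM in the HF samples. In batch 2 it was 80.7, 97.9, 86.6 and 103 CPM in LF and 111, 137 and 122 CPM in HF. The groups overlapped in batch 1 by HF replicate 2 and did not overlap in batch 2. The log2 fold change was 0.47 (SE 0.11, adjusted p = 0.00612, n = 8 LF and 6 HF).

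Psma1 and Psma3, further alpha subunits, behaved alike. Psma1 was at 96.0, 85.5, 77.0 and 101 CPM in LF and 133, 99.4 and 150.4 CPM in HF of batch 1. In batch 2 Psma1 was at 92.1, 105, 101 and 121 CPM in LF and 119, 134 and 124 CPM in HF. The groups touched in both batches, and the log2 fold change was 0.38 (SE 0.09, adjusted p = 0.00667). Psma3 was at 68.4, 58.7, 57.5 and 72.4 CPM in LF and 86.0, 72.4 and 110.1 CPM in HF of batch 1. In batch 2 it was at 68.7, 79.0, 73.5 and 83.7 CPM in LF and 84.5, 105 and 95.8 CPM in HF. Every HF sample of Psma3 was above every LF sample in both batches, the lowest HF and the highest LF sample of batch 1 being equal to the digits given, with a log2 fold change of 0.40 (SE 0.09, adjusted p = 0.00585).

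The catalytic beta subunits followed. Psmb5, whose product cuts after hydrophobic residues, was at 34.0, 27.9, 27.8 and 37.3 CPM in LF and 48.7, 34.1 and 51.7 CPM in HF of batch 1. In batch 2 Psmb5 was at 38.6, 41.5, 39.0 and 46.1 CPM in LF and 46.5, 53.8 and 45.9 CPM in HF. One HF sample lay inside the LF range in each batch, and the log2 fold change was 0.37 (SE 0.10, adjusted p = 0.0104). Psmb6, whose product cuts after acidic residues, was at 70.5, 56.9, 52.1 and 70.1 CPM in LF and 92.2, 63.6 and 99.2 CPM in HF of batch 1. Its batch 2 levels were 74.7, 78.7, 72.8 and 90.6 CPM in LF and 90.1, 101 and 92.1 CPM in HF. The lowest HF sample overlapped LF in each batch, and the log2 fold change of 0.35 (SE 0.10, adjusted p = 0.0189) did not pass the call without HF replicate 3 of batch 1, where it was 0.31. Psmb7, whose product cuts after basic residues, was at 66.9, 51.3, 51.8 and 61.4 CPM in LF and 76.9, 64.6 and 88.3 CPM in HF of batch 1. In batch 2 Psmb7 was at 70.1, 78.3, 76.4 and 86.6 CPM in LF and 88.5, 97.8 and 91.5 CPM in HF. All 3 HF samples of batch 2 were above LF, and the log2 fold change was 0.33 (SE 0.09, adjusted p = 0.0104).

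Psmb2 and Psmb3 are beta subunits without a catalytic site. Psmb2 was at 57.7, 49.0, 46.5 and 57.7 CPM in LF and 69.0, 56.0 and 78.2 CPM in HF of batch 1, and its log2 fold change over both batches was 0.33 (SE 0.08, adjusted p = 0.00713). The batch 2 samples had 65.1, 71.7, 67.6 and 80.3 CPM in LF and 82.0, 92.8 and 87.0 CPM in HF, with no overlap. Psmb3 was at 52.2, 44.3, 43.5 and 58.0 CPM in LF and 66.3, 56.8 and 83.7 CPM in HF of batch 1. Batch 2 gave 61.7, 66.5, 63.8 and 73.3 CPM in LF and 74.2, 86.4 and 78.9 CPM in HF, again without overlap, and its log2 fold change was 0.37 (SE 0.09, adjusted p = 0.00752). The other core genes, Psma4 to Psma7, Psmb1 and Psmb4, had log2 fold changes of 0.28 to 0.39.

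**Figure D2:**
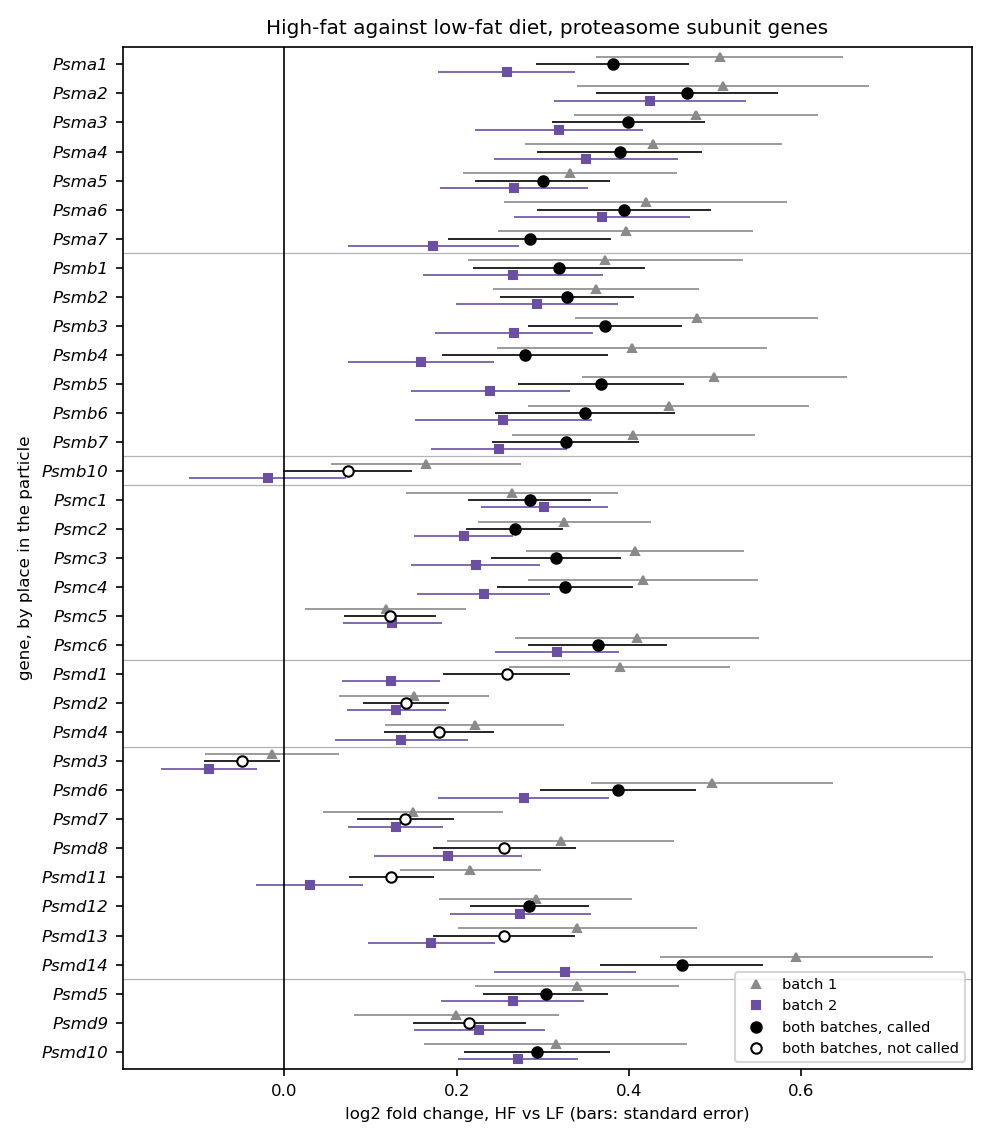
Log2 fold change of HF against LF for each gene (x axis, bars are standard errors), from batch 1 (triangles), batch 2 (squares) and both batches (circles, filled where the gene passed the call). All 14 constitutive core genes are filled. Psmb10, Psmc5, the base genes Psmd1, Psmd2 and Psmd4, 5 of the 8 lid genes and the chaperone Psmd9 are open, and Psmd3 lies left of 0.

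The regulatory particle was less uniform. Of its 17 structural genes 16 were higher in HF, 8 passed the call and 13 passed at the adjusted p alone, the median being 0.26 on the log2 scale within a range of -0.05 to 0.46. Of the 6 ATPases 5 passed the call, the exception being Psmc5 (0.12, adjusted p = 0.0838). Psmc6 was at 96.8, 79.1, 75.2 and 95.0 CPM in LF and 111, 94.6 and 139 CPM in HF of batch 1. In batch 2 it was at 76.6, 88.0, 83.0 and 94.4 CPM in LF and 103, 112 and 105 CPM in HF. The HF samples of batch 2 were all above LF, and the log2 fold change was 0.36 (SE 0.08, adjusted p = 0.00573). Psmc2 was at 48.9, 44.0, 45.5 and 52.9 CPM in LF and 59.3, 52.6 and 67.8 CPM in HF of batch 1. Its batch 2 levels were 53.3, 50.1, 51.5 and 53.8 CPM in LF and 58.2, 62.1 and 60.5 CPM in HF. Its fold change was just past the limit, at 0.27 (SE 0.06, adjusted p = 0.00515), and fell under 1.2-fold without LF replicate 2, LF replicate 3 or HF replicate 3 of batch 1 (0.26, 0.26 and 0.24), with library totals in place of TMM (0.24) and by limma voom (0.24). Psmc4 was at 59.2, 55.4, 57.9 and 64.6 CPM in LF and 73.3, 65.5 and 98.4 CPM in HF of batch 1. In batch 2 Psmc4 was at 70.7, 77.5, 75.3 and 78.8 CPM in LF and 77.8, 95.3 and 93.1 CPM in HF. Without HF replicate 3 of batch 1, the highest sample, its log2 fold change went from 0.33 (SE 0.08, adjusted p = 0.00781) to 0.25, and by limma voom it was 0.25.

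The non-ATPase base genes are Psmd1 and Psmd2, scaffolds that bind ubiquitin receptors and shuttle factors, and Psmd4, a ubiquitin receptor. None of the 3 reached 1.2-fold over both batches, with log2 fold changes of 0.26, 0.14 and 0.18, although each had an adjusted p under 0.05. Psmd1 was at 101, 93.6, 96.4 and 108 CPM in LF and 124, 107 and 161 CPM in HF of batch 1. The batch 2 samples had 99.3, 105, 109 and 111 CPM in LF and 109, 118 and 119 CPM in HF. HF replicate 3 of batch 1 stood above all other samples.

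Within the lid, Psmd14, Psmd6 and Psmd12 passed the call and the other 5 genes did not. Psmd14 (chromosome 2, 61711694 to 61800376 in mm10), the deubiquitinase, had the smallest p of the 35 genes. It was at 54.0, 44.1, 46.4 and 53.1 CPM in LF and 70.8, 57.6 and 95.2 CPM in HF of batch 1. Batch 2 gave 48.5, 53.0, 48.0 and 59.5 CPM in LF and 62.6, 71.4 and 62.6 CPM in HF. Every HF sample was above every LF sample in both batches, and the log2 fold change was 0.46 (SE 0.09, adjusted p = 0.00451). Psmd3, a structural subunit of the same lid, was the one gene lower in HF. It was at 82.6, 86.7, 87.6 and 82.3 CPM in LF and 79.5, 85.3 and 87.0 CPM in HF of batch 1. In batch 2 it was at 98.7, 93.6, 101 and 93.3 CPM in LF and 88.7, 90.4 and 93.7 CPM in HF. Its log2 fold change of -0.05 (SE 0.04, adjusted p = 0.40) did not pass the test.

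Of the 3 assembly chaperones of the base, Psmd5 (0.30, SE 0.07, adjusted p = 0.00724) and Psmd10 (0.29), passed the call, and Psmd9 (0.21) passed at the adjusted p alone. Psmd5 was at 45.4, 42.1, 38.9 and 50.4 CPM in LF and 55.1, 48.7 and 64.0 CPM in HF of batch 1. Its batch 2 levels were 44.3, 50.4, 46.4 and 55.3 CPM in LF and 55.8, 61.8 and 59.6 CPM in HF, with no overlap.

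Within batch 1 alone, 34 of 35 genes were higher in HF (49.5% of all genes) by a median of 0.37 on the log2 scale, and none passed the call by edgeR, as none of the 14428 genes tested did (0%). Without adjustment 26 genes had a p under 0.05, where the share of all genes was 22.2%. That count was 8 without HF replicate 3, 16 without HF replicate 1 and 17 without LF replicate 3, with shares over all genes of 8.99%, 15.1% and 16.0%. DESeq2 called 5 and limma voom with sample weights 26, in fits that called 3.55% and 16.8% of all genes in either direction. Without HF replicate 2, edgeR called 22, and 9.25% of all genes. Every HF sample was above every LF sample for 5 genes (Psma3, Psmc4, Psmd2, Psmd11 and Psmd14), and the share over all genes was 6.29%.

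Within batch 2, 33 of 35 genes were higher in HF (48.0% of all genes), with a median of 0.25. The call was passed by 6 (Psma2, Psma6, Psmc1, Psmc6, Psmd10 and Psmd14), against 3.03% of all 14377 genes, and 7 passed at the adjusted p alone, against 3.62%. That count rested on single samples, and the share of all genes called in either direction, 7.44% with every sample, moved with it. The count was 0 without LF replicate 1, LF replicate 3, HF replicate 2 or HF replicate 3 (0.103% to 0.342% of all genes) and 1 without LF replicate 2 (2.35%). It was 20 without LF replicate 4 (17.9%), and 13 and 10 without HFLF replicates 1 and 2 (10.3% and 8.17%), which enter the same fit. The groups did not overlap, with HF higher, for 17 genes, against 13.8% of all genes. A difference between batches in the size of the change was tested with edgeR's interaction term, and 0 of 35 genes had an adjusted p under 0.05, as did 0% of all genes. Without adjustment the count at a p under 0.05 was also 0, against 6.56% of all genes, and DESeq2 and limma voom called 0.

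The return to low-fat food went with lower levels than continued high-fat feeding. Over both batches all 35 genes were lower in HFLF than in HF, the median log2 fold change being -0.24, against 0.01 for all genes. A total of 11 genes fell at an adjusted p under 0.05 and a fold above 1.2, against 4.90% of all genes, and 18 fell at the adjusted p alone, against 8.04%. Those past both limits were Psma1 to Psma4, Psmb2, Psmb3, Psmb5, Psmc3, Psmc4, Psmd6 and Psmd14. With every sample 10.3% of all genes were called in either direction, and this share moved with the count. The count was 2 without HF replicate 3 of batch 1 (3.47% of all genes), 4 without HF replicate 2 of batch 2 (3.76%) and 7 without HF replicate 1 of batch 1 (6.38%). It was 24 without HF replicate 2 (18.5%) and 20 without HFLF replicate 1 of batch 1 (14.8%), and 17 with a replicate block (12.1%).

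Psmd14 had the largest fall, by 0.37 on the log2 scale (SE 0.09, adjusted p = 0.0164). It was at 67.7, 47.3, 55.5 and 51.4 CPM in the HFLF samples of batch 1 and at 47.8, 57.4, 52.9, 51.4 and 54.1 CPM in those of batch 2, where all were below the 3 HF samples. Psma2 was at 98.7, 70.4, 102 and 86.9 CPM in HFLF of batch 1 and at 82.2, 116, 101, 87.7 and 96.0 CPM in batch 2. One HFLF sample of batch 2 was above the lowest HF sample, and the log2 fold change against HF was -0.34 (SE 0.10, adjusted p = 0.0319).

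Psmb5 fell by 0.30 (SE 0.09, adjusted p = 0.0338), with HFLF levels of 41.2, 34.2, 38.9 and 31.3 CPM in batch 1 and 33.2, 42.0, 40.4, 38.4 and 44.0 CPM in batch 2. Psmc4 fell by 0.33 (SE 0.08, adjusted p = 0.0140), with HFLF levels of 71.1, 54.4, 58.9 and 55.6 CPM in batch 1 and 69.9, 77.8, 74.4, 67.8 and 80.2 CPM in batch 2. Both overlapped HF in batch 1, and Psmc4 also did in batch 2, where HFLF replicates 2 and 5 were above the lowest HF sample. Psmd3 stood at 93.6, 83.2, 82.1 and 81.7 CPM in HFLF of batch 1 and at 94.6, 87.1, 89.8, 83.5 and 90.6 CPM in batch 2. Its log2 fold change against HF was -0.003 (adjusted p = 0.961).

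Among the other core genes with values given for HF and LF, Psma1, Psma3, Psmb2 and Psmb3 fell past both limits. Psma1 fell by 0.28 (SE 0.09, adjusted p = 0.0332), with HFLF samples at 117, 89.8, 114 and 97.0 CPM in batch 1 and 104, 109, 107, 96.6 and 103 CPM in batch 2. Psma3 fell by 0.32 (SE 0.09, adjusted p = 0.0218), with HFLF samples at 77.7, 60.0, 76.4 and 65.2 CPM in batch 1 and 73.7, 91.4, 81.5, 68.6 and 76.4 CPM in batch 2. All HFLF samples of batch 2 were below HF for Psma1, and 1 was not for Psma3. Psmb2 fell by 0.30 (SE 0.08, adjusted p = 0.0167), with HFLF samples at 60.0, 50.7, 58.6 and 53.7 CPM in batch 1 and 59.5, 76.8, 75.6, 63.4 and 73.7 CPM in batch 2. Psmb3 fell by 0.30 (SE 0.09, adjusted p = 0.0247), with HFLF samples at 62.1, 47.9, 58.8 and 53.6 CPM in batch 1 and 58.5, 75.7, 64.0, 57.7 and 69.0 CPM in batch 2. In batch 2 the HFLF samples were all below HF for Psmb2, and 1 overlapped for Psmb3.

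The catalytic genes Psmb6 and Psmb7 did not pass the call. For Psmb6 the HFLF samples were at 79.1, 59.3, 81.9 and 66.9 CPM in batch 1 and 61.6, 86.6, 80.3, 68.9 and 77.6 CPM in batch 2, and the log2 fold change was -0.29 (adjusted p = 0.0518). For Psmb7 they were at 72.6, 52.7, 74.0 and 64.0 CPM in batch 1 and 70.7, 85.2, 78.0, 70.4 and 78.2 CPM in batch 2, and the log2 fold change was -0.25 (adjusted p = 0.0447). Both overlapped HF in batch 1 and lay below it in batch 2.

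In the regulatory particle, Psmc2, Psmc6, Psmd1 and the chaperone Psmd5 had adjusted p values under 0.05 and folds short of 1.2. Psmc2 was at 55.2, 47.4, 50.6 and 50.7 CPM in HFLF of batch 1 and 48.7, 56.4, 53.5, 50.9 and 52.0 CPM in batch 2, with a log2 fold change of -0.22. Psmc6 was at 98.8, 79.0, 107 and 94.9 CPM in HFLF of batch 1 and 87.7, 101, 96.0, 88.4 and 91.3 CPM in batch 2, with a log2 fold change of -0.23. The HFLF samples of both genes were below HF in batch 2 and overlapped it in batch 1. Psmd1 was at 122, 95.1, 107 and 100.1 CPM in HFLF of batch 1 and 102, 104, 103, 97.0 and 107 CPM in batch 2, with a log2 fold change of -0.24. Psmd5 was at 51.4, 41.2, 49.3 and 43.7 CPM in HFLF of batch 1 and 44.9, 53.3, 53.2, 45.8 and 51.1 CPM in batch 2, with a log2 fold change of -0.26. They too overlapped HF in batch 1 only.

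Within batch 2 alone 13 genes fell past both limits, against 5.61% of all genes, and 24 fell at the adjusted p alone, against 8.53%. Of the 13, 11 were among the 14 constitutive core genes and 2, Psmc1 and Psmd14, among the 17 structural genes of the regulatory particle. At the adjusted p alone, the split was 11 and 11. The particles thus differed in calls at the fold limit and less so in p, with median log2 fold changes of -0.29 for the core and -0.20 for the regulatory particle. The count of 13, beside 14.5% of all genes called in either direction, was 0 without HF replicate 2 (0.0757%), 1 without HF replicate 3 (4.71%) and 2 without HFLF replicate 1 or HFLF replicate 4 (6.13% and 6.66%). It was 22 without HFLF replicate 2 (19.3%) and 20 with a replicate block (19.6%). Every HF sample was above every HFLF sample for 20 genes, against 12.4% of all genes.

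In batch 1, 34 of 35 genes were lower in HFLF than in HF, with a median of -0.24. None passed the call by edgeR (0% of all genes fell), DESeq2 or limma voom. Without adjustment 11 genes had a p under 0.05, against 10.9% of all genes. Without HF replicate 3 the median was -0.12 and that count 0, against 3.83% of all genes. The count was 1 without HFLF replicate 2 or HFLF replicate 4 (8.82% and 6.50%), 4 without HF replicate 1 (10.3%) and 24 without HF replicate 2 (20.9%). For 0 genes was every HF sample above every HFLF sample, where the share over all genes was 4.07%.

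**Figure D3:**
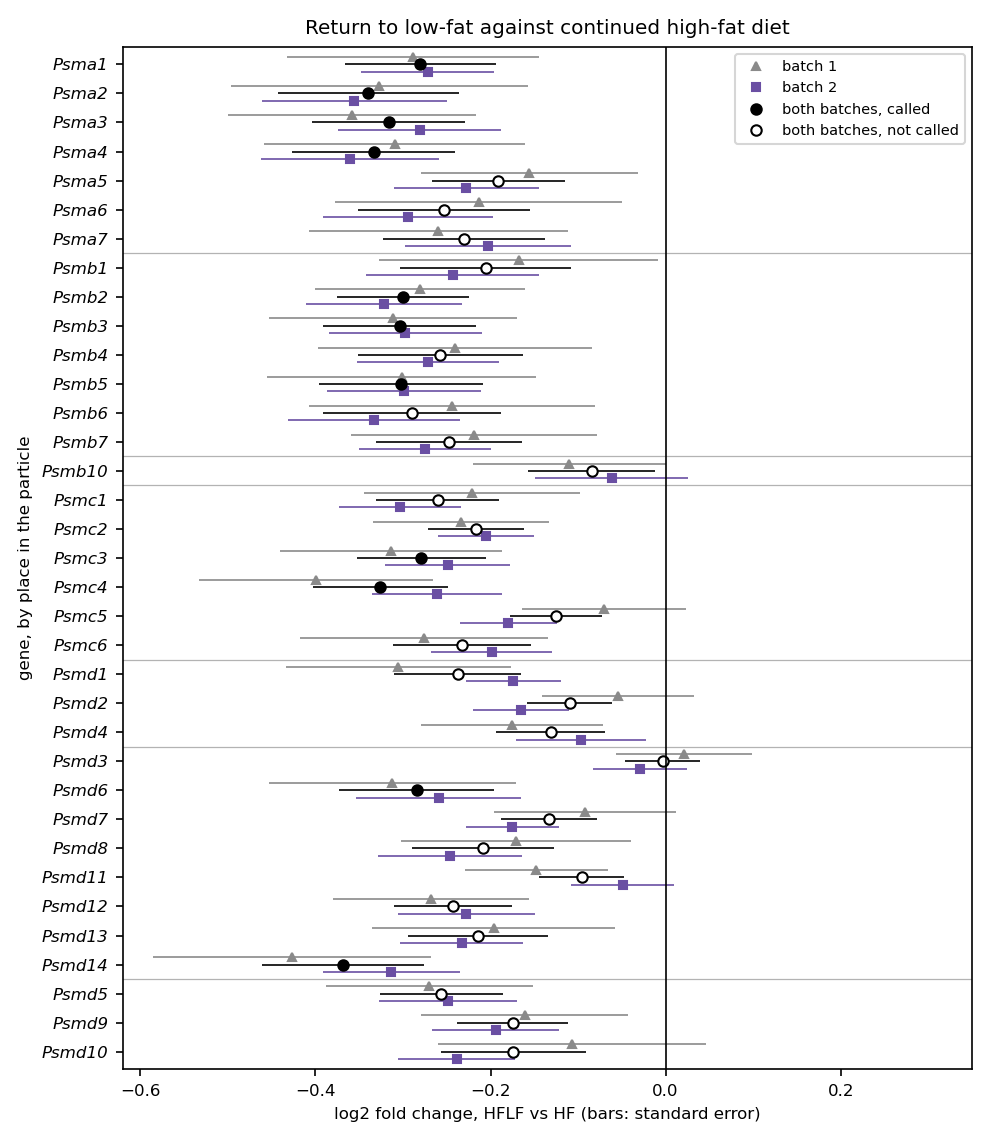
Log2 fold change of HFLF against HF for each gene (x axis, bars are standard errors), with symbols as for HF against LF. Nearly all points lie left of 0 in both batches, and the 11 filled circles include 7 core genes, Psmc3, Psmc4, Psmd6 and Psmd14.

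No difference between HFLF and LF epithelium passed the test in these genes. None of the 35 passed the call in batch 1, batch 2 or both by edgeR, DESeq2 or limma voom, as 0% of all genes were called higher in each edgeR fit. The medians were 0.12, -0.02 and 0.05. By sign alone, all 35 genes were higher in HFLF than in LF in batch 1, 14 in batch 2 and 31 over both batches. The shares of all genes were 50.3%, 52.1% and 54.1%. At an unadjusted p under 0.05 edgeR gave 0, 1 and 0 genes, against 5.29%, 4.65% and 4.11% of all genes. The one gene was Psmd3 in batch 2 (-0.12, SE 0.05). The single largest log2 difference over both batches was 0.14 (SE 0.09) for Psma6. These comparisons share their HF and LF samples, and are given side by side without a test of one against another.

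The difference from LF was larger over the core than over the regulatory particle, given here as values without a test. In the HF samples of batch 1 the mean log2 difference from LF was 0.50, 0.11 and 0.65 over the 14 core genes and 0.28, 0.10 and 0.49 over the 17 regulatory genes. The batch 2 values were 0.18, 0.39 and 0.27 over the core and 0.11, 0.25 and 0.19 over the regulatory particle. Each HF sample thus had the larger value in the core. The LF samples were also spread more widely over the core, which ran from -0.22 to 0.18 and the regulatory particle from -0.10 to 0.12 in batch 1.

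The log2 ratio of summed core to summed regulatory CPM was -0.16, -0.31, -0.44 and -0.22 in LF of batch 1 and -0.06, -0.27 and -0.13 in HF. In HFLF of batch 1 it was -0.20, -0.29, -0.08 and -0.22. In batch 2 the ratio was -0.25, -0.16, -0.25 and -0.09 in LF, -0.11, -0.04 and -0.10 in HF, and -0.26, -0.07, -0.13, -0.22 and -0.20 in HFLF. The groups overlapped in both batches. The mean ratio was -0.28 ± 0.12 (SD, n = 4) in LF and -0.15 ± 0.11 (SD, n = 3) in HF of batch 1, and -0.19 ± 0.08 (SD, n = 4) and -0.09 ± 0.04 (SD, n = 3) in batch 2, differences about as large as the spread between samples.

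**Figure D4:**
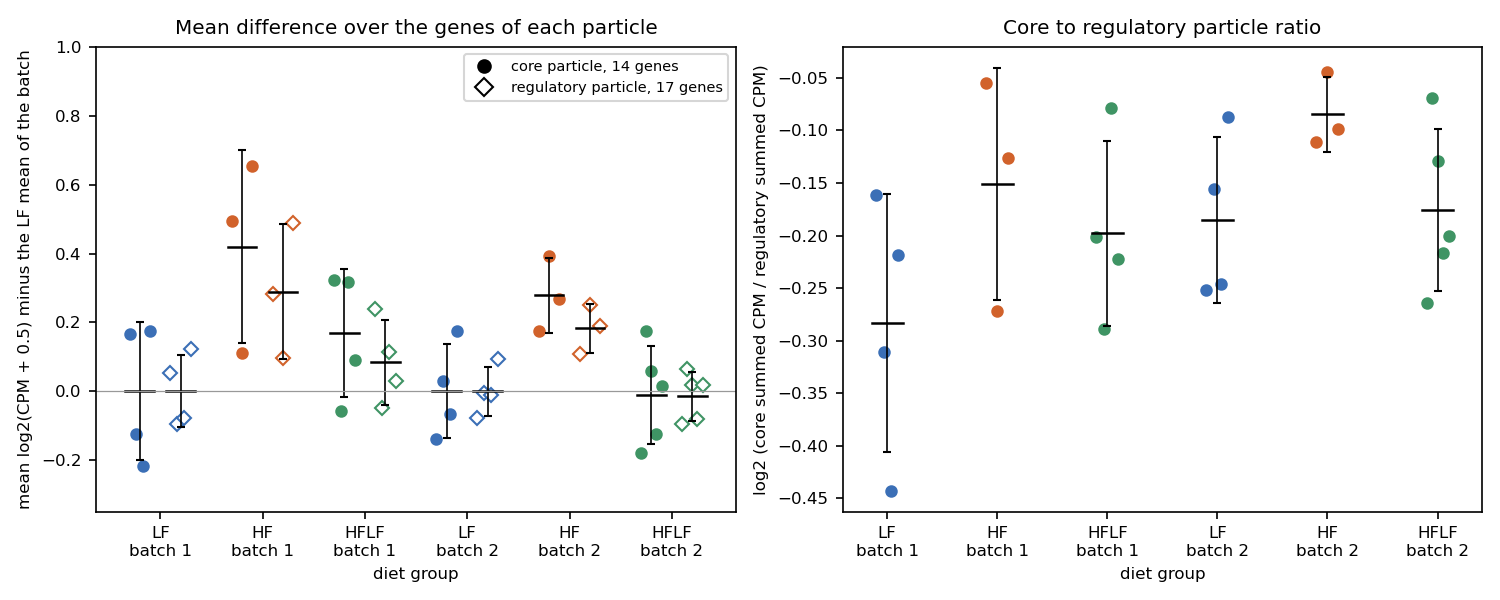
Left, mean log2(CPM + 0.5) minus the LF mean of the batch over 14 core genes (filled circles) and 17 regulatory genes (open diamonds), 1 symbol per sample. Right, log2 ratio of summed core to summed regulatory CPM per sample. Horizontal lines are group means and bars SD, and the HF groups have the highest means in each batch. They overlap LF or HFLF samples everywhere except for the regulatory genes of batch 2, where HF starts at 0.11 and LF ends at 0.09.

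Psmb10, the interferon-inducible subunit that takes the place of Psmb7 in newly made cores, did not pass the test in HF against LF. It was at 99.7, 84.6, 77.0 and 93.4 CPM in LF and 101, 92.3 and 105 CPM in HF of batch 1, with HFLF samples at 90.8, 86.9, 108 and 82.9 CPM. The batch 2 samples had 103, 108, 111 and 138 CPM in LF, 104, 123 and 112 CPM in HF, and 113, 110.5, 113, 99.9 and 106 CPM in HFLF. All groups overlapped, and the fit over both batches gave a log2 fold change of 0.07 (SE 0.07, adjusted p = 0.468).

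The log2 ratio of Psmb10 to Psmb7 within each sample does not depend on library scaling. Its mean was 0.61 ± 0.07 (SD, n = 4) in LF and 0.38 ± 0.13 (SD, n = 3) in HF of batch 1, a difference of -0.23. In batch 2 the means were 0.55 ± 0.09 (SD, n = 4) and 0.29 ± 0.05 (SD, n = 3), a difference of -0.26. In both batches every HF sample was below every LF sample. The lower ratio went mainly with a higher Psmb7. In batch 1 mean Psmb7 was 76.6 CPM in HF and 57.9 CPM in LF, and mean Psmb10 was 99.4 and 88.7 CPM. In batch 2 mean Psmb7 was 92.6 and 77.9 CPM, and mean Psmb10 was 113 and 115 CPM. A two-sided exact permutation test gave p = 0.0571 in each batch, which is the smallest value that 3 against 4 samples allow, and 0.114 after adjustment over the 6 ratio tests. HFLF samples lay at 0.49 ± 0.18 (SD, n = 4) in batch 1 and 0.50 ± 0.11 (SD, n = 5) in batch 2. Against HF they were higher by 0.10 in batch 1 (exact permutation p = 0.457, adjusted 0.492) and by 0.22 in batch 2 (exact permutation p = 0.0357, the smallest possible, adjusted 0.114). Against LF they differed by -0.13 (exact permutation p = 0.200, adjusted 0.300) and -0.05 (exact permutation p = 0.492, adjusted 0.492). No ratio passed the test after adjustment. Psmb8 and Psmb9, the other inducible subunits, had log2 fold changes of -0.13 (SE 0.19) and -0.12 (SE 0.13) in HF against LF over both batches, and neither passed the test.

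**Figure D5:**
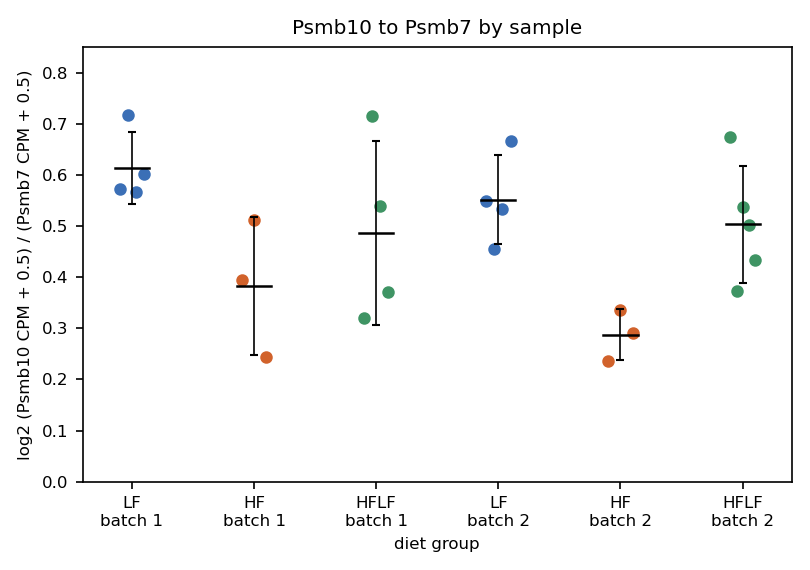
Log2 ratio of Psmb10 to Psmb7 CPM (y axis, 0.5 added to each) by diet and batch, with 1 point per sample, lines for the mean and bars for SD. HF samples lie at 0.24 to 0.51 in batch 1 and 0.24 to 0.34 in batch 2, below the LF samples of the same batch.

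Of 37 further genes of the ubiquitin-proteasome pathway, all measured and tested, 6 rose and 1 fell in HF against LF over both batches, where 9.0% of all genes rose and 9.11% fell, and the median of the 37 was 0.11 on the log2 scale. Of the 6, 3 help to build the core: Pomp, the maturation factor, at 0.33 (SE 0.10, adjusted p = 0.0179), and Psmg1 and Psmg2, which pair to assemble the alpha ring, both at 0.29. The other 3 belong to the regulatory particle: Uchl5 (0.36) and Usp14 (0.27), deubiquitinases bound to it, and Sem1 (0.28), a small lid subunit listed as Shfm1. Pomp was at 47.8, 34.8, 37.6 and 45.7 CPM in LF and 57.4, 44.1 and 61.5 CPM in HF of batch 1. Batch 2 gave 44.3, 50.7, 50.9 and 63.8 CPM in LF and 61.1, 66.8 and 62.6 CPM in HF, overlapping LF through LF replicate 4. Pomp, Psmg2, Sem1 and Uchl5 also fell in HFLF against HF over both batches, by 0.28, 0.32, 0.28 and 0.29, where 4.90% of all genes fell. They were taken from the 6 picked for higher HF values, and the same HF samples enter both comparisons. The share of all genes, which were not so picked, is thus not a like background for them.

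The gene that fell in HF was Ddi2, the protease that activates the transcription factor Nfe2l1, a known inducer of proteasome genes. Ddi2 was at 54.5, 64.9, 58.3 and 57.7 CPM in LF and 46.9, 51.4 and 43.9 CPM in HF of batch 1. Batch 2 gave 49.7, 43.3, 50.3 and 43.0 CPM in LF and 39.5, 36.3 and 38.6 CPM in HF. HF was below LF without overlap in both batches, with a log2 fold change of -0.30 (SE 0.07, adjusted p = 0.00561), opposite in sign to the subunits. Nfe2l1 itself was at -0.16 (SE 0.05, adjusted p = 0.0192), short of 1.2-fold, and Nfe2l2 at -0.04. The fourth gene listed with them, Ngly1, which removes sugar chains from Nfe2l1, had the opposite sign at 0.18 (SE 0.06, adjusted p = 0.0278), also short of 1.2-fold. The activators and inhibitors Psme1 to Psme4 and Psmf1 were at 0.11 to 0.19 and none passed the call. Among 14 genes for ubiquitin, its activating enzymes and delivery to the proteasome, none passed the call either, with a median of 0.10.

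Markers of dividing cells were also higher in HF over both batches. All 11 (Mki67, Top2a, Pcna and others) had that sign, at a median of 0.39 on the log2 scale. Of them 8 were past the call, where 9.0% of all genes rose. Their summed level was 368 to 567 CPM in LF and 528 to 916 CPM in HF of batch 1, with HFLF at 394 to 643 CPM. Batch 2 had 668 to 740 CPM in LF, 696 to 789 CPM in HF and 552 to 807 CPM in HFLF. The median log2 fold change of the 11 was 0.18 there against 0.63 in batch 1. Within batch 2, mean Mki67 was lower in HF (208 CPM) than in LF (222 CPM), and mean Pcna was higher (89.3 against 76.2 CPM). Among LF samples of batch 1 Mki67 was highest in replicate 3 (224 CPM), where the subunits were lowest. Pcna was highest in replicate 4 (71.3 CPM), where the subunits were highest. In HFLF against HF all 11 were lower over both batches, at a median of -0.42. Of them 6 were past the call, where 4.90% of all genes fell. The part of these cells in the subunit values was not tested.

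Markers of cells outside the epithelium were at low levels and mostly had the opposite sign over both batches, though not in each batch. All 8 stromal and smooth muscle markers were lower in HF than in LF over both batches, with a median of -1.10 on the log2 scale. Of them 1 was past the call, where 9.11% of all genes fell. In batch 1 alone 3 of the 8 were higher in HF, and the median was -0.07. In HFLF against HF over both batches 7 of 8 stromal markers were higher, at a median of 1.01 and with none past the call. Their summed level was 16.5 to 33.9 CPM in LF and 3.25 to 36.2 CPM in HF of batch 1, and 13.5 to 57.6 CPM and 4.89 to 19.6 CPM in batch 2. The median sum was higher in HF (28.2 CPM) than in LF (21.1 CPM) in batch 1, and lower in batch 2 (12.9 against 36.6 CPM). Of the 5 leukocyte markers tested over both batches 4 were lower in HF, at a median of -0.38, and none passed the call. The median sum of the leukocyte markers was 17.1 CPM in HF and 21.6 CPM in LF of batch 1. In batch 2 it was higher in HF, at 14.6 against 12.7 CPM. The median sum of the 2 endothelial markers was 5.50 CPM in HF and 6.13 CPM in LF of batch 1. For batch 2 the endothelial sums were 4.68 and 5.14 CPM. The 5 epithelial markers summed to 9251 to 10665 CPM in LF and 9474 to 10813 CPM in HF of batch 1. In batch 2 they summed to 8888 to 10659 CPM in LF, with a median of 9656, and 10224 to 10724 CPM in HF, with a median of 10520. None of the 5 passed the call over both batches, where their median was 0.04. Within the epithelium, the 4 goblet cell markers had a median sum of 19408.7 CPM in HF and 20046.5 CPM in LF of batch 1. In batch 2 their sum ran from 26057 to 28977 CPM in HF, below 30159 to 37701 CPM in LF. The 3 stem cell markers had a median sum of 58.7 CPM in HF and 55.1 CPM in LF of batch 1. Their sum in batch 2 ran from 76.5 to 81.4 CPM in HF, above 60.2 to 73.9 CPM in LF. The median sum of the 4 mature colonocyte markers was 8683 CPM in HF and 6439 CPM in LF of batch 1. In batch 2 it was 6529 and 5327 CPM, and the groups overlapped in both batches. The part of these cells in the subunit values was not tested either.

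Gene length moved with the comparison too. Among all genes with a protein-coding length, the median log2 fold change of HF against LF over both batches was 0.24 for 551 genes of up to 1000 bases, 0.10 for 2429 genes of 1000 to 2000, 0.01 for 5002 genes of 2000 to 4000, and -0.08 for 4923 longer ones. In the same classes the proteasome genes had medians of 0.36 (4 genes), 0.29 (18 genes), 0.27 (12 genes) and 0.30 (1 gene), above all genes of their length in each class. For the shortest class the margin was small in batch 2, at 0.26 for the 4 genes against 0.22 for all genes of that length. In batch 1 it was 0.46 against 0.26. Core genes were shorter, at a median of 1172 bases (766 to 3427), than the structural regulatory genes, at 1989 bases (1316 to 3112). Among those of up to 2000 bases, the median was 0.35 for 11 core genes and 0.27 for 9 regulatory genes. The part of length in these values was not tested.

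In HF against LF over both batches, 4 of the 5 tested genes with TGACNNNGC, 6 of the 10 with CCGGAAG and 10 of the 11 with CCAAT passed the call. Among tested genes with a promoter but without the motif, the counts were 16 of 24, 14 of 19 and 10 of 18. The median log2 fold changes with and without the motif were 0.35 and 0.29 for TGACNNNGC, 0.28 and 0.30 for CCGGAAG, and 0.37 and 0.28 for CCAAT. These counts describe letters in a window and were not tested. The windows of Psmb5, Psmb6, Psmc6, Psmd6, Psma2 and Psmd14 were picked for printing from genes that passed the call in HF against LF. That all of them passed the call follows from this choice and says nothing about the motifs. Genes with a motif that did not pass, such as Psmd9 with TGACNNNGC and Psmd2 with CCGGAAG, were not printed.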

How the data were processed

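The authors deposited raw counts per gene (fragments assigned to gene models) for 23 libraries made with a stranded total RNA kit after ribosomal RNA depletion. Per the submitters' processing notes, reads were processed with cutadapt 1.2.1, STAR 2.5, Subread and featureCounts 1.5.0-p1 on mm10, and the notes used here do not give the strand setting of the counting. Groups followed the labels for diet and batch. From the counts, edgeR 4.0.16 (R 4.3.3) was run on each batch and on both with batch as a covariate, with the 3 diets in one fit, filterByExpr, TMM factors, the quasi-likelihood F test and Benjamini-Hochberg adjustment over all genes. A gene was called at an adjusted p under 0.05 and a fold above 1.2. DESeq2 1.42.0 and limma 3.58.1 voom with sample weights were alternatives. The HF against LF comparison by edgeR, DESeq2 and voom, in each batch and in both, was tested on simulated data with genes drawn independently. The other comparisons and alternatives were not simulated. Values in every sample were given for the 6 genes of smallest p in HF against LF over both batches, the 3 of smallest p in HFLF against HF, the gene of largest change in each class and the catalytic subunits. Psmd3, Nfe2l1, Nfe2l2 and Ngly1 were named after their values were seen. The Psmb10 to Psmb7 ratio was tested with exact permutation in Python 3.11.15 and scipy 1.17.1, with 0.5 CPM added to both. Lengths and promoters came from GENCODE vM21 and RefSeq. The members and lists were chosen with earlier results of these data known. Total counts of 29189922 to 65320947 per sample set the precision, and floors cover counting error only.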

Additional observations from a re-analysis of the deposited data

Results flagged for a closer look

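In 72 groups of 4 or 5 samples, taken over the genes with values in every sample, the mean over all 35 genes, the core to regulatory ratio and the Psmb10 to Psmb7 ratio, 0 held a sample beyond Dixon's 95% limit. The HF groups, with 3 samples each, were not in this check, so it could not flag an HF sample. Of the 35 genes, 0 passed the test of a difference between batches in HF against LF.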

How the results depend on the processing

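The median log2 fold changes of the 35 genes kept within the spread between samples under every alternative. For HF against LF they ran, with each sample left out in turn, from 0.25 to 0.52 in batch 1, 0.21 to 0.30 in batch 2 and 0.27 to 0.35 over both. For HFLF against HF they ran from -0.35 to -0.12, -0.30 to -0.21 and -0.29 to -0.20, -0.12 being without HF replicate 3 of batch 1. Counts of calls moved more, in batch 1 to 5 by DESeq2 and 26 by limma voom (0 by edgeR), and in batch 2 to 14 and 16 and, with a replicate block, to 17 (6). With each sample left out they ran from 0 to 22 in batch 1 and 0 to 20 in batch 2. For HFLF against HF in batch 2 the count was 24 at the adjusted p alone, 20 with the replicate block and 0 to 22 with each sample left out (13). Over both batches it was 18, 17 and 2 to 24 in the same order and 7 by limma voom (11). The cause of these shifts was not tested. The count of 24 for HF against LF over both batches was 16 to 27 in all alternatives but the adjusted p alone, which gave 30. Of the alternative values for single genes in that comparison, 411 kept their side of the call, 8 lost it (Psmb6, Psmc2, Psmc4) and 16 gained it, all of Psmd1. Same-numbered samples of different diets in 1 batch correlated between -0.59 and 0.59 in their deviations from group means, with 10 of 20 pairs above 0.1. Such a range cannot settle whether the numbers pair samples, and the replicate block is an alternative only.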
